A study of Mus musculus with 14 samples.

Results

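Prostaglandins are made from arachidonate in a short chain of enzymes, and 10 genes of that chain were followed through 14 RNA-seq libraries of mouse bone marrow-derived macrophages (BMDMs), which are macrophages grown from marrow precursors. The genes were Ptgs1, Ptgs2, Ptges, Ptges2, Ptges3, Hpgds, Tbxas1, Hpgd, Ptger2 and Ptger4, 10 of 25239 gene symbols in the deposited table and 10 of the 13311 with enough counts to test. They were taken by symbol. Hpgd was picked for its fall in conditioned medium and its rise in the knockout, so its values are given as a description with no test.

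The KO macrophages came from Ezh2fl/fl;LysM-Cre+/- mice, whose floxed Ezh2 is removed in myeloid cells by Cre, driven from the lysozyme M promoter. The WT macrophages came from littermate controls, for which the labels name no alleles. All marrow was cultured for 7 to 10 days with medium of L929 cells, and the macrophages were then kept for 24 h in DMEM complete medium (control) or in medium taken from cultures of the mouse liver cancer line Hepa1-6 (conditioned medium, CM). There were 4 WT libraries and 3 KO libraries in each medium. The labels give no age or sex of the mice and do not tie libraries to animals. The p-values therefore measure only how far these samples spread, which may be technical.

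The cyclooxygenases Ptgs1 and Ptgs2 turn arachidonate into the unstable endoperoxide prostaglandin H2, and terminal synthases then make prostaglandin E2, prostaglandin D2 or thromboxane A2 from it. Prostaglandin E2 acts on the receptors EP1 to EP4, of which EP2 and EP4 raise cyclic AMP, and is inactivated by 15-hydroxyprostaglandin dehydrogenase, the product of Hpgd. In macrophages the pathway is known for shaping inflammatory output, and Ptgs2 and Ptges are the forms that inflammatory stimuli are best known to induce.

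The 250 bases before the RefSeq transcription start (table build GRCm38.p6) are shown for the gene with the deepest fall in CM, Hpgd (chr8:56294302-56294551, plus strand), and for 3 genes that rose there, Ptgs1 (chr2:36230176-36230425, plus strand), Tbxas1 (chr6:38918736-38918985, plus strand) and Ptger4 (chr15:5244188-5244437, minus strand). They are written 5′ to 3′ along the gene, and capitals mark matches on either strand to GAGGAA, the core of PU.1 sites, to GGGCGG, the GC box, to TGANTCA, the AP-1 site, and to TATAAA, the TATA box. PU.1 is a transcription factor of the myeloid lineage. The RefSeq start of Tbxas1 lies inside the GENCODE span of the gene, which begins at 38875404. The Tbxas1 stretch shown is thus upstream of an internal start.
Hpgd: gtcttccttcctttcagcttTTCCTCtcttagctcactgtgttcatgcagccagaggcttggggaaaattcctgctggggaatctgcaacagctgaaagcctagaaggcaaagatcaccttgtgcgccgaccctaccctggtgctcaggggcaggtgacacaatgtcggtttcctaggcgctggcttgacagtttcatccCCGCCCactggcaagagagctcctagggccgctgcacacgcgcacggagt
Ptgs1: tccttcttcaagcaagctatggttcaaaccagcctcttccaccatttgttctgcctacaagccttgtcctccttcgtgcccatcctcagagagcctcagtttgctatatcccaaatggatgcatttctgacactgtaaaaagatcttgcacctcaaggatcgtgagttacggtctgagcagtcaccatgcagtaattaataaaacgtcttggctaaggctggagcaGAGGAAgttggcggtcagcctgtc
Tbxas1: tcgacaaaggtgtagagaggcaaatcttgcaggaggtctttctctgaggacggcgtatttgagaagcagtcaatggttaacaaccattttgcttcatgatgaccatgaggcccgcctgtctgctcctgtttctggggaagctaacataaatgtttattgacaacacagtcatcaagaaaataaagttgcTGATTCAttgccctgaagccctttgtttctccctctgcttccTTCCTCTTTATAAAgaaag
Ptger4: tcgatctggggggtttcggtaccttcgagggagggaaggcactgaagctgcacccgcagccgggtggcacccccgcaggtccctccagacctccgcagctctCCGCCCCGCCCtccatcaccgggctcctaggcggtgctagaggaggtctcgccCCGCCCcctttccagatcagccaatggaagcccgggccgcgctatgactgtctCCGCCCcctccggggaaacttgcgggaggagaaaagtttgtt

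In the windows of 300 bases in the RefSeq table, which run 50 bases past the start, all 10 genes were matched. The letters GAGGAA were found in 6 of the 10, Hpgd, Ptgs1, Ptgs2, Ptges, Hpgds and Tbxas1, and in 28.3% of all 32851 promoters. GGGCGG was found in 5 of the 10 and in 35.7% of all promoters, and TATAAA in 2 of the 10, Hpgd and Tbxas1, and in 13.6% of all. The TATAAA match of Hpgd is not within the 250 bases shown before its start. The ends of the Hpgd and Ptger2 windows were not found in GENCODE transcripts of these genes, so their starts are uncertain. The AP-1 letters were found in Tbxas1 alone among the 10, and in 7.81% of all. In Tbxas1 the TATA box letters occur on both strands and overlap, and they follow a GAGGAA match directly. In Ptger4, 2 of the GC box matches overlap. The letters of the cAMP response element (TGACGTCA) and of STAT sites (TTCNNNGAA) were in 0 of the 10 windows, against 1.79% and 8.3% of all. Those of C/EBP sites (TTGCNNAA) were in 3 of the 10, Ptgs2, Hpgds and Ptger2, and in 10.8% of all. The E-box (CACGTG) was in 2 of the 10, Ptgs2 and Ptges2, and in 7.15% of all. Hpgd has 12 CpG dinucleotides in its window and 60.4% of promoters have fewer. Ptgs1 has 6 and Tbxas1 has 4, against a median of 7, while Ptger4 has 25. These matches describe the letters and were not tied to the measurements by any test.

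Library totals ran from 40.2 to 85.8 M counts (M, mega-counts), with overlapping ranges in the 4 groups. WT libraries 3 and 4 of both media held 80.4 to 85.8 M, and the other 10 libraries, with all KO libraries among them, 40.2 to 61.5 M. The part of depth in the KO differences was not tested. The counts are per exon, so one fragment over several exons may add to more than one of them. The macrophage markers Adgre1, Cd68, Csf1r, Itgam, Mertk, Fcgr1, Lyz2 and Cd14 were all detected in every group. Their summed level was 30250.2 to 35761.8 CPM (counts per mega-count of the library, after TMM scaling) in WT control libraries and 21319.5 to 22028.8 in KO control libraries, with Lyz2, the gene whose promoter drives Cre, at means of 21890.6 and 10221.2. Over the whole gene Ezh2 was at 19.8 to 26.3 CPM in WT control, 18.2 to 18.8 in KO control, 31.4 to 38.6 in WT CM and 24.6 to 28.9 in KO CM. The 2 neighbouring Ezh2 exons of 81 and 85 bp, chosen after their values were seen, summed to 1.42 to 2.48 CPM in the WT libraries and 0.0226 to 0.351 in the KO libraries. WT libraries 3 and 4 of both media stood apart from the other 10 libraries on the second principal component (-31.8 to -29.0 against 3.3 to 22.2). For that reason, KO calls that change with them are given for both pairs of WT libraries.

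A gene was called at a Benjamini-Hochberg adjusted p below 0.05 by edgeR's quasi-likelihood test over all 13311 genes. In WT cells, CM called 37.3% of the tested genes, 19.3% higher and 18.0% lower. In KO cells it called 38.1%, 20.0% higher and 18.2% lower. Of the 9 genes other than Hpgd, 5 were called higher and 0 lower in each genotype, namely Ptgs1, Ptges, Tbxas1, Ptger2 and Ptger4. Their median log2 change over the 9 was 0.46 in WT and 0.38 in KO, beside -0.01 over all tested genes in each. The 4 not called in either genotype were Ptgs2, Ptges2, Ptges3 and Hpgds. In a bulk sample, fewer cells of a type and less RNA per cell cannot be told apart.

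**Figure D1:**
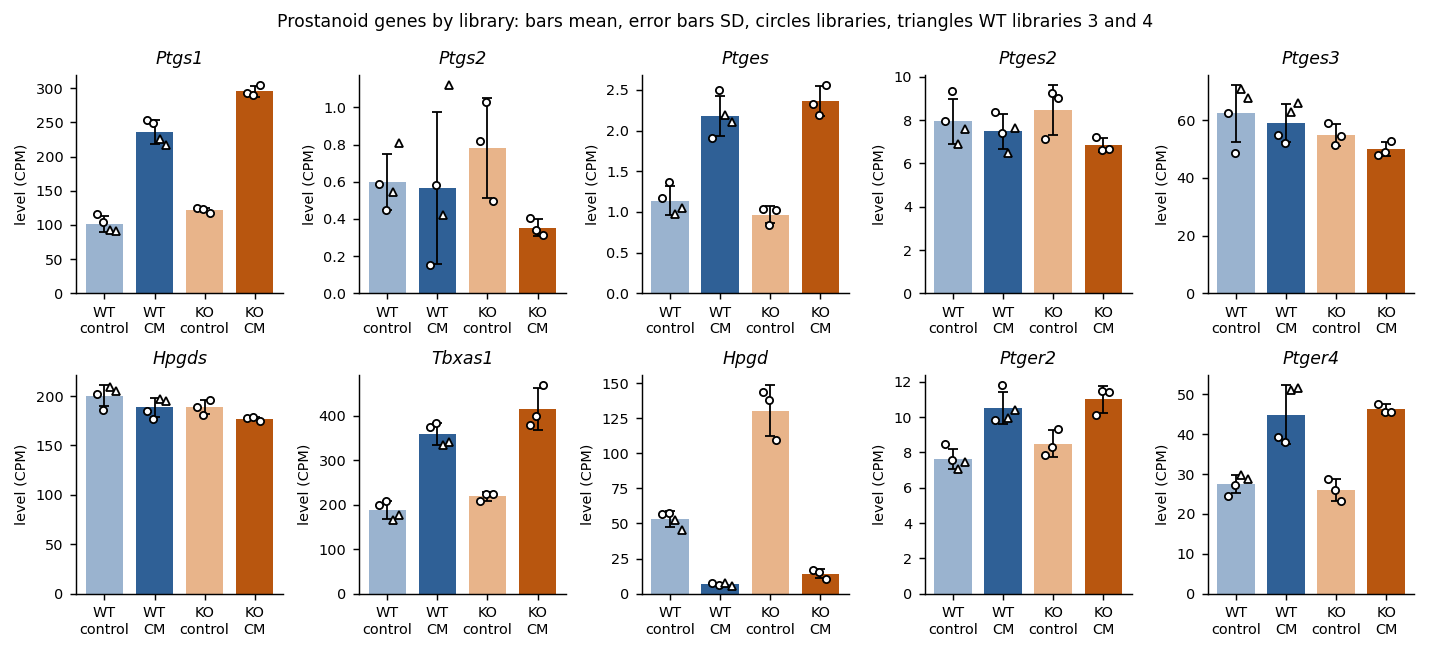
Level of each gene in CPM (vertical axes, each from 0) in the 4 groups; bars are means, error bars SD, circles single libraries and triangles WT libraries 3 and 4. Ptgs1 and Tbxas1 are higher in every CM library than in every control library, and Hpgd falls from 45.4 to 57.3 CPM in WT control to 5.17 to 7.5 in WT CM.

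Nearly all cyclooxygenase transcript was of the first form, and it rose in CM. Ptgs1 (chromosome 2, 36230426 to 36252272, plus strand, mm10) encodes the constitutive cyclooxygenase and stood at 116.4, 104.2, 93.3 and 91.5 CPM in the WT control libraries. In WT CM it stood at 253.5, 248.7, 224.9 and 217.3 CPM. In KO it stood at 124.4, 123.5 and 118.2 CPM in control medium and at 292.4, 289.3 and 304.6 CPM in CM. Every CM library was above every control library of either genotype. The log2 change in CM was 1.22 ± 0.07 (SE) in WT, adjusted p = 2.94e-09, and 1.28 ± 0.09 in KO, adjusted p = 1.13e-08. Each of its 11 exons showed the rise, with log2 changes of 1.11 to 1.3 in WT and 1.0 to 1.49 in KO.

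Ptgs2 (chromosome 1, 150100031 to 150108227, plus strand), the inducible cyclooxygenase, was near the lower limit of the measurement, with 497 counts over all 14 libraries. It stood at 0.586, 0.45, 0.547 and 0.809 CPM in WT control and at 0.15, 0.582, 0.42 and 1.12 CPM in WT CM. In KO it stood at 0.818, 1.03 and 0.498 CPM in control medium and at 0.406, 0.34 and 0.315 CPM in CM. The WT groups overlapped and the KO groups did not. The log2 change in CM was -0.03 ± 0.41 in WT (adjusted p = 0.963), with an approximate 95% interval of -0.84 to 0.78. The 4 WT CM libraries held between 6 and 92 Ptgs2 counts. In KO it was -1.17 ± 0.51, adjusted p = 0.0847. That p fell to 0.0345 without WT CM library 1 and to 0.0383 without WT CM library 4. Those libraries are in neither KO group and act through the shared fit, with its filter, scaling, spread and adjustment. Per kb of exon, Ptgs2 made up 0.385% ± 0.127 (SD, n = 4) of the 2 cyclooxygenases in WT control, 0.16% ± 0.123 in WT CM, 0.409% ± 0.133 (n = 3) in KO control and 0.077% ± 0.0114 in KO CM.

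Among the terminal synthases, Tbxas1 and Ptges were called in CM. The thromboxane synthase Tbxas1 (chromosome 6, 38875404 to 39084585, plus strand) was at 200.5, 208.7, 166.0 and 177.0 CPM in WT control and at 375.3, 383.8, 334.1 and 342.2 CPM in WT CM. In KO it was at 207.6, 225.1 and 223.9 CPM in control medium and 378.8, 400.1 and 468.8 CPM in CM. Levels in CM and control did not overlap. The log2 change was 0.93 ± 0.08 in WT (adjusted p = 2.31e-07) and 0.93 ± 0.10 in KO (adjusted p = 1.37e-06), with 0.77 to 0.99 over its 13 exons in WT. The hematopoietic prostaglandin D synthase Hpgds (chromosome 6, 65117293 to 65144908, minus strand) lay at 185.6 to 209.1 CPM in WT control, 177.1 to 197.0 in WT CM, 181.2 to 195.9 in KO control and 175.2 to 178.4 in KO CM. Its log2 change in CM was -0.09 ± 0.05 in WT (adjusted p = 0.187, interval -0.19 to 0.01) and -0.09 ± 0.06 in KO (adjusted p = 0.249). With the replicate number as a block, which joins control and CM libraries of 1 number, the WT change was -0.09 at an adjusted p of 0.0434. Scaling by library totals alone gave -0.17 (adjusted p = 0.00946) and -0.20 (adjusted p = 0.01), where the median over all genes moved to -0.088 and -0.119. The ratio of Tbxas1 to Hpgds per kb of exon was 1.32 to 1.87 in WT control, 2.83 to 3.61 in WT CM, 1.83 to 2.07 in KO control and 3.54 to 4.46 in KO CM.

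Of the 3 prostaglandin E synthases, only Ptges, the microsomal and inducible form, was called. Ptges (chromosome 2, 30889471 to 30929863, minus strand) was at 1.17, 1.37, 0.972 and 1.05 CPM in WT control and at 1.91, 2.5, 2.19 and 2.1 CPM in WT CM. In KO it was at 1.04, 0.842 and 1.02 CPM in control medium and at 2.33, 2.19 and 2.56 CPM in CM. Each CM library was above each control library, by a log2 change of 0.94 ± 0.15 in WT (adjusted p = 0.000124) and 1.29 ± 0.18 in KO (adjusted p = 3.26e-05). Ptges nevertheless stayed a small share of the 3 synthases per kb of exon, at 0.885% ± 0.26 (SD, n = 4) in WT control and 1.74% ± 0.314 in WT CM, and at 0.807% ± 0.06 (n = 3) and 2.17% ± 0.1 in KO.

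Ptges3 (chromosome 10, 128058954 to 128077272, plus strand), the cytosolic synthase that is also the Hsp90 cochaperone p23, was at 48.7 to 71.0 CPM in WT control and 52.0 to 66.1 CPM in WT CM, with overlap. Its log2 change in CM was -0.08 ± 0.10 in WT (adjusted p = 0.579) and -0.14 ± 0.12 in KO (adjusted p = 0.406). A processed pseudogene, Ptges3-ps, shares 480 bases at 100% identity, so reads over that stretch cannot be assigned with certainty. Ptges2 (chromosome 2, 32395896 to 32405772, plus strand), a membrane-associated synthase, was at 6.88 to 9.35 CPM in WT control and 6.47 to 8.4 CPM in WT CM. Its change was -0.09 ± 0.11 in WT (adjusted p = 0.592) and -0.31 ± 0.13 in KO (adjusted p = 0.0793). Without KO control library 1, the KO change was -0.42 at an adjusted p of 0.0285.

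Hpgd, whose enzyme oxidises prostaglandin E2 to an inactive ketone, fell the furthest. It lies on chromosome 8 from 56294585 to 56321043 (plus strand). It stood at 57.1, 57.3, 52.6 and 45.4 CPM in WT control and at 7.35, 6.23, 7.5 and 5.17 CPM in WT CM. In KO it stood at 143.6, 137.7 and 109.6 CPM in control medium and at 16.8, 15.7 and 10.5 CPM in CM. All 4 groups were apart, in the order KO control, WT control, KO CM and WT CM. The fitted log2 change in CM was -3.02 in WT, an 8.12-fold lower level, and -3.19 in KO, a 9.14-fold lower level. KO exceeded WT by a log2 change of 1.30 (2.46-fold) in control medium and 1.13 (2.18-fold) in CM. Against WT libraries 1 and 2 alone these were 1.19 and 1.07, and against WT libraries 3 and 4 alone 1.41 and 1.17. Leaving out any 1 library kept the change in CM between -3.11 and -2.92 in WT and between -3.32 and -3.00 in KO. The KO change minus the WT change was -0.17 on the log2 scale, and 0.02 without KO CM library 3, which had the lowest KO CM level.

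The pattern ran along the whole transcript. Hpgd has 7 exon entries, and the log2 change in CM was -3.06 to -2.92 over the 7 in WT and -3.29 to -3.05 in KO. The KO difference was less even, at 1.09 to 1.62 in control medium and 0.85 to 1.38 in CM. It was largest in exon 1 in control medium and smallest in exon 7, the longest, in both media. Exon 1 held 3.26 to 4.38% of Hpgd counts in WT libraries 3 and 4, against 5.72 to 8.67% in the other 10 libraries, and exon 7 held 33.3 to 41.9% against 27.3 to 32.1%. The part of this difference in coverage in the KO values was not tested. Of the 7 entries, 5 match a single annotated exon by length, among them exon 2 at 56294939 to 56295062 and exon 6 at 56318993 to 56319156 of chromosome 8.

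**Figure D2:**
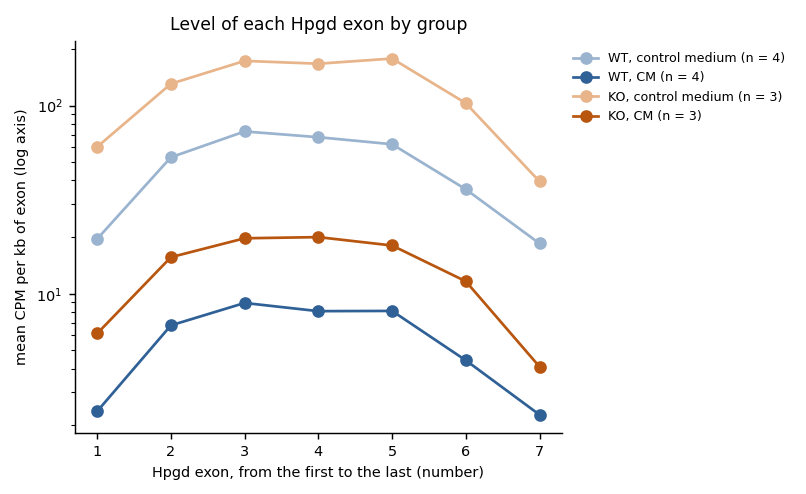
Mean level of each Hpgd exon, in CPM per kb of exon on a log axis, against exon number from the first to the last; lines are the 4 groups (n = 4 WT and 3 KO libraries). The 4 lines keep their order at all 7 exons, and the CM lines run below the control lines of both genotypes.

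Both cyclic AMP-raising prostaglandin E2 receptors rose in CM. Ptger4 (chromosome 15, 5206661 to 5244187, minus strand), which encodes EP4, was at 24.6, 27.2, 29.7 and 28.7 CPM in WT control and at 39.2, 38.0, 51.0 and 51.6 CPM in WT CM. In KO it was at 28.8, 26.1 and 23.2 CPM in control medium and at 47.7, 45.6 and 45.5 CPM in CM. No CM library overlapped a control library, and within WT CM the 2 higher values were those of libraries 3 and 4. The log2 change was 0.71 ± 0.10 in WT and 0.83 ± 0.12 in KO, both at an adjusted p of 4.69e-05. Ptger4 overlaps the pseudogene Gm15937 on the opposite strand over 872 bases. Shorter overlaps on the opposite strand touch Ptgs1 (148 bases), Tbxas1 (144) and Ptger2 (246). Without a stated strand setting of the counting, reads of such partners cannot be told apart.

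Ptger2 (chromosome 14, 44988195 to 45003820, plus strand), which encodes EP2, was at 8.45, 7.55, 7.06 and 7.45 CPM in WT control and at 9.85, 11.8, 9.95 and 10.4 CPM in WT CM. In KO it was at 7.86, 8.28 and 9.33 CPM in control medium and at 10.1, 11.5 and 11.4 CPM in CM. The groups did not overlap, though the gaps were small. The log2 change was 0.46 ± 0.09 in WT (adjusted p = 0.000664) and 0.38 ± 0.10 in KO (adjusted p = 0.00871). Neither reached 1.5-fold, and the KO call was lost with library totals alone (0.27, adjusted p = 0.0536) and with the most-counted exon of each gene (0.32, adjusted p = 0.207). EP2 made up 16.6 to 29.0% of the summed Ptger2 and Ptger4 level per kb of exon over all libraries.

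**Figure D3:**
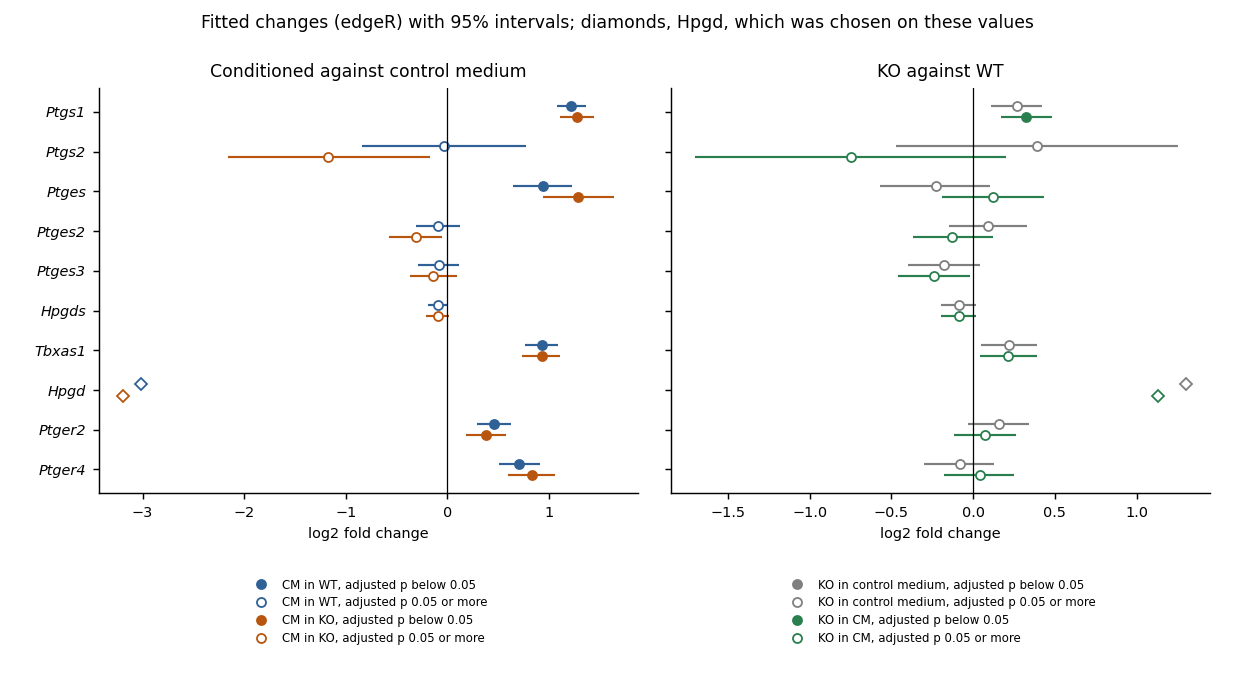
Fitted log2 fold changes (horizontal axes) of each gene, with approximate 95% intervals, for CM against control medium (left) and KO against WT (right); filled points passed an adjusted p of 0.05, open circles did not, and diamonds are Hpgd, shown without interval or test. The 5 genes with filled points on the left are filled in both genotypes, and Ptgs1 in CM is the only filled point on the right.

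Levels per kb of exon come from summed exon counts, in which a fragment over several exons may count more than once. Genes of many short exons may thus stand too high, here and in the per-kb shares and ratios above. On this scale Tbxas1 was the highest of the 10 in every group. It stood at 95.1 CPM per kb in WT control, 181.4 in WT CM, 110.6 in KO control and 210.3 in KO CM. Among exons of similar length, Hpgds exon 3 (110 bp) was at 23.4 CPM in WT control, above Tbxas1 exon 5 (117 bp) at 14.5. Hpgds exons are numbered by genome position, so on its minus strand exon 6 is the one nearest the transcription start. That exon (58 bp) was below the internal Tbxas1 exon 3 (53 bp), at 9.34 and 12.1 CPM. The order of Tbxas1 and Hpgds in WT control is thus not settled. Ptgs2 was the lowest in every group, at 0.0793 to 0.176 CPM per kb by group mean, although its KO control libraries overlapped those of Ptges. In WT control, Hpgds followed at 60.8, and Ptgs1 (35.4), Ptges3 (32.0) and Hpgd (30.9) came next with overlapping libraries, so their order is not resolved. In WT CM, Ptgs1 was second at 82.4 CPM per kb, and Hpgd was seventh at 3.82, overlapping Ptges2 (3.83) and Ptger2 (2.78). In KO control, Hpgd was second at 75.8, above Hpgds (57.3) and Ptgs1 (42.6). In KO CM it was sixth at 8.34, below Ptger4 (12.1) and above Ptges2 (3.5). The per-kb ratio of Ptgs1 to Hpgd was 1.06 to 1.22 in WT control, 18.0 to 25.2 in WT CM, 0.519 to 0.646 in KO control and 10.4 to 17.4 in KO CM, and Hpgd was chosen for that direction.

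**Figure D4:**
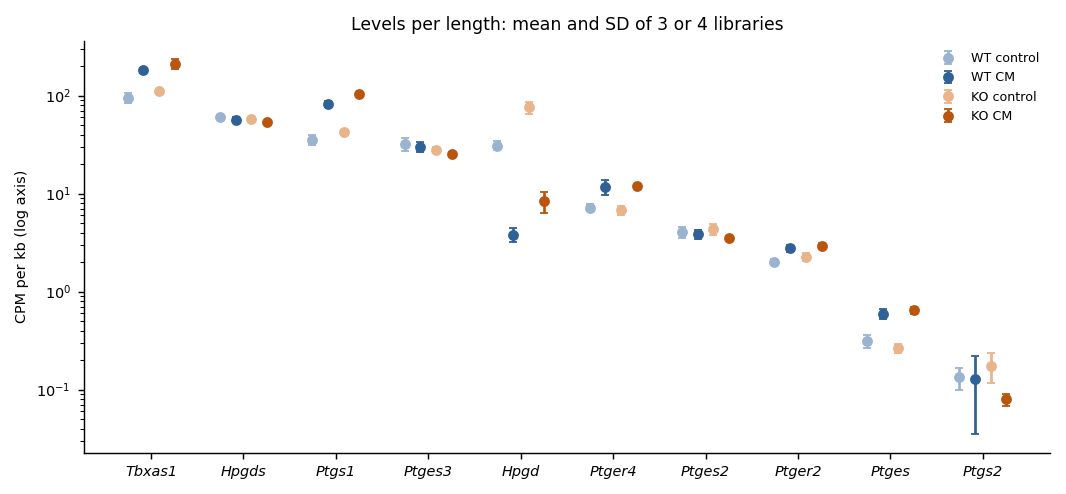
Level of each gene in CPM per kb of exon (log axis), from summed exon counts, with genes in the order of their WT control means; points are group means and error bars SD of 4 WT or 3 KO libraries. Tbxas1 is highest and Ptgs2 lowest in all 4 groups, while Hpgd moves between second place in KO control and seventh in WT CM.

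Between the genotypes, Ptgs1 was the 1 gene of the 9 called, in CM, with a difference of similar size in control medium. In control medium, 5.32% of all tested genes were called between KO and WT (708 genes), and 0 of the 9 genes were, with a median log2 change of 0.09 beside 0.0 over all genes. In CM, 4.59% of all tested genes were called (611), and 1 of the 9 was, Ptgs1, with a median of 0.04. Both backgrounds moved with single libraries. In control medium, leaving out 1 gave 1769 calls without WT control library 2, 285 and 330 without WT control libraries 3 and 4, and 282, 224 and 244 without KO control libraries 1, 2 and 3. In CM, it gave 292 and 259 without WT CM libraries 3 and 4, and 307, 363 and 217 without KO CM libraries 1, 2 and 3. The KO comparisons share their libraries with the CM comparisons, so the 2 sets of values are not independent.

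Ptgs1 was higher in KO than in WT by 0.32 ± 0.08 in CM (adjusted p = 0.0291), and the 3 KO CM libraries lay above the 4 WT CM libraries. That call was lost without WT CM library 3 (adjusted p = 0.0888) or 4 (0.0959), and without KO CM library 1 (0.0726), 2 (0.0664) or 3 (0.128), at log2 changes of 0.29 to 0.34. In control medium the difference was 0.27 ± 0.08 at an adjusted p of 0.0593, again with no overlap, and it passed without WT control library 1 (0.34, adjusted p = 0.0167) or 2 (0.28, adjusted p = 0.0446). It also passed with DESeq2 (0.26, adjusted p = 0.0217) and with limma-voom (0.35, adjusted p = 0.00143), which called 1481 of 12664 and 4757 of 13311 genes. With the replicate block it was 0.23 (adjusted p = 0.0434). Between genotypes that block joins WT and KO libraries of 1 number, a link that the labels do not give. With WT libraries 1 and 2 only, the difference was 0.15 in control medium (adjusted p = 0.166) and 0.24 in CM (adjusted p = 0.0254). Against the other pair, libraries 3 and 4, it was 0.40 (adjusted p = 1.5e-05) and 0.42 (adjusted p = 1.55e-05). Over all genes, that pair gave 5246 calls of 13485 in control medium and 4791 in CM. By exon, the KO difference of Ptgs1 ran from 0.12 to 0.75 in control medium and was largest in exon 1, which held 1.62 to 1.86% of Ptgs1 counts in WT libraries 3 and 4 and 2.72 to 3.73% in the other 10. The part of this coverage in the difference was not tested.

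Tbxas1 differed between the genotypes by 0.22 ± 0.09 in control medium (adjusted p = 0.14) and 0.21 ± 0.09 in CM (adjusted p = 0.164). With only WT libraries 3 and 4 the values were 0.35 (adjusted p = 0.00171) and 0.30 (adjusted p = 0.00588), and with only libraries 1 and 2 they were 0.10 (adjusted p = 0.52) and 0.14 (adjusted p = 0.373). Ptges3 showed the same dependence with the other sign, at -0.18 ± 0.11 (adjusted p = 0.315) and -0.24 ± 0.11 (adjusted p = 0.219) against all WT libraries, and at -0.33 (adjusted p = 0.00106) and -0.37 (adjusted p = 0.000689) against WT libraries 3 and 4 alone. Against WT libraries 1 and 2 alone Ptges3 stood at -0.01 and -0.09. Ptges3 in control medium also passed without WT control library 2 (-0.28, adjusted p = 0.0497). Hpgds stood at -0.13 (adjusted p = 0.0258) and -0.14 (adjusted p = 0.0189) against WT libraries 3 and 4 alone, and at -0.04 (adjusted p = 0.788) and -0.02 (adjusted p = 0.868) against libraries 1 and 2. For these 3 genes the call depends on which WT libraries are used. Against libraries 3 and 4 alone, 5246 of all 13485 tested genes were called in control medium and 4791 in CM. Ptger2 and Ptger4 differed by 0.16 and -0.08 in control medium (adjusted p = 0.32 and 0.661) and by 0.07 and 0.04 in CM (adjusted p = 0.677 and 0.861). Ptges, Ptges2, Hpgds and Ptgs2 had adjusted p of 0.328 or more in both media against all WT libraries.

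Whether the response to CM differed between the genotypes was tested by the interaction term. By edgeR, 0.0% of the 13311 genes were called, with 1050 at an unadjusted p below 0.05, while DESeq2 called 84 and limma-voom 27. The 9 genes had adjusted p of 0.716 or more. The largest interaction among them was that of Ptgs2, -1.13 ± 0.65, at an adjusted p of 0.716.

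Thromboxane synthase, cyclooxygenase 1 and the D synthase are also products of platelets and mast cells, so markers of these cells were read beside them. Of 8 megakaryocyte and platelet markers, 6 had a count, with Gp6 at 0 in all groups, and their summed level was 5.87 to 8.9 CPM in WT control, 7.66 to 10.9 in WT CM, 7.9 to 9.31 in KO control and 11.2 to 12.5 in KO CM. The WT ranges overlapped. Most of the sum was Treml1, with means of 3.85 CPM in WT control, 5.43 in WT CM, 4.85 in KO control and 7.57 in KO CM, and Gp1ba, which went the other way with means of 2.93, 2.08, 3.11 and 1.7. Of 10 mast cell and basophil markers, 7 were at 0 in all groups, among them Mcpt4, Tpsb2, Cma1 and Fcer1a, and the sum was 2.09 to 3.59 CPM in WT control, 2.88 to 3.64 in WT CM, 1.06 to 1.58 in KO control and 1.94 to 3.83 in KO CM, most of it Kit. Endothelial markers summed to 160.1 to 250 CPM in WT control and 245.1 to 362.8 in WT CM, and to 164.6 to 192.5 and 316.3 to 338.3 in KO. Most of that was Vwf, with means of 185.6, 281.0, 166.1 and 315.4 CPM in WT control, WT CM, KO control and KO CM. Kdr, the next, ran the other way at 17.3, 14.2, 12.8 and 11.7 CPM, while Pecam1 and Cdh5 had means below 0.5 CPM and Emcn was at 0. In KO, the platelet, mast cell and endothelial sums were each higher in CM without overlap, as Ptgs1 and Tbxas1 were, while in WT the ranges of all 3 sums overlapped between the media. Their part in those results was not tested.

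Of 87 further genes of the pathway on 6 lists, 83 were in the table and 67 had enough counts. In CM, 13 of the 67 were called higher and 25 lower in WT, and 13 and 21 in KO, with medians of -0.02 and -0.03. Over all tested genes the shares were 19.3% and 18.0% in WT and 20.0% and 18.2% in KO, so for genes called higher the lists stood close to the background. Genes named here without remark were set by a rule on p and size, and Prxl2b, Cbr3, Ptgr2, Zadh2, Hsd17b4, Cyp4f18, Ephx1, Pparg, Ptger1, Abcc1, Abcc4, Adcy7, Adcy9 and Gnas were chosen after their values were seen. Ptgir, Pla2g4a and Daglb met the rule only between the genotypes, so their CM values were not set by it. Several members of the chain could not be tested for lack of counts. These include the prostaglandin D2 and I2 synthases Ptgds and Ptgis with 3 and 2 counts over 14 libraries, the thromboxane receptor Tbxa2r with 4, the receptors Ptgfr and Ptgdr with 1 and 2, and the importer Slco2a1 with 22.

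Among the other synthases, 2 of 8 tested were called higher in CM and 1 lower in each genotype, close to the 37.3% and 38.1% called of all genes. The carbonyl reductase Cbr2 rose from 7.67 ± 2.01 (SD, n = 4) to 17.1 ± 2.48 CPM in WT, a log2 change of 1.16 ± 0.17 (adjusted p = 4.65e-05), and by 1.29 ± 0.20 in KO (adjusted p = 9.41e-05). Prxl2b, which encodes a prostamide and prostaglandin F synthase, was the other called higher, by 0.62 in WT (adjusted p = 5.92e-05). In KO its groups overlapped and its change of 0.29 ± 0.11 (adjusted p = 0.0427) lost the call without KO control library 1 (adjusted p = 0.139) or 3 (0.17), KO CM library 2 (0.165) or 3 (0.0717), or WT CM library 1 (0.0516) or 4 (0.0528). Cbr3 fell in both. Among 6 tested genes of breakdown, prostaglandin reductase 1 (Ptgr1), which acts on the product of Hpgd, rose from 44.3 ± 1.59 to 83.3 ± 2.63 CPM in WT, by 0.91 ± 0.06 (adjusted p = 3.29e-09), and by 0.99 ± 0.06 in KO (adjusted p = 8.6e-09). Cyp4f18 was called lower, at -0.30 ± 0.09 in WT (adjusted p = 0.0185) and -0.34 ± 0.11 in KO (adjusted p = 0.0204). In WT, the adjusted p missed the threshold when control library 1 (0.0503), control library 2 (0.0621) or CM library 4 (0.0597) was left out. In KO, it did so when control library 2 (0.101), CM library 1 (0.0894) or CM library 2 (0.077) was left out. Ephx1 was called lower in WT at -0.15 ± 0.05 (adjusted p = 0.043) with overlapping groups, and the call was lost, at adjusted p of 0.0524 to 0.12, on leaving out any 1 of WT control libraries 2, 3 and 4, WT CM libraries 1, 2 and 4, KO control library 3 and KO CM libraries 1 and 2. Ptgr2, Zadh2 and Hsd17b4 were not called in either genotype.

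Among 5 tested receptors, Ptger3, the EP3 receptor, which lowers cyclic AMP, fell from 4.82 ± 0.853 to 0.816 ± 0.156 CPM in WT, by -2.54 ± 0.17 (adjusted p = 1.14e-08), and from 4.13 ± 0.498 to 0.538 ± 0.0761 CPM in KO, by -2.94 ± 0.21 (adjusted p = 2.96e-08). The prostacyclin receptor Ptgir rose, at 7.34 to 9.49 CPM in WT control and 11.8 to 16.4 in WT CM. Pparg, a nuclear receptor for a prostaglandin D2 derivative and other lipids, fell from 45.9 ± 5.46 to 26.8 ± 1.9 CPM in WT, by -0.78 ± 0.08 (adjusted p = 2e-06). Ptger1, the EP1 receptor, whose counts are uncertain without a stated strand setting, was not called, at 0.10 in WT (adjusted p = 0.34) and -0.04 in KO. Of the 4 receptor genes for prostaglandin E2, 2 rose, 1 fell and 1 was not called in each genotype. Over all tested genes, 37.3% were called in either direction in WT and 38.1% in KO. Of 4 transport genes, the exporter Abcc4 rose and Abcc1 fell in both genotypes, beside the same shares of all genes.

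Arachidonate is freed from membranes by phospholipases and put back by acyltransferases. Of 16 tested genes of these steps, 5 rose and 4 fell in WT, and 5 rose and 2 fell in KO, beside 37.3% and 38.1% of all genes called in either direction. The cytosolic phospholipase A2 gene Pla2g4a rose from 11.6 ± 0.685 to 19.3 ± 1.81 CPM in WT, by 0.73 ± 0.08 (adjusted p = 2.25e-06), and from 12.3 ± 0.859 to 24.1 ± 1.08 CPM in KO, by 0.97 ± 0.09 (adjusted p = 5.17e-07). The lysophospholipid acyltransferase Lpcat2 fell from 154.0 ± 2.35 to 98.7 ± 6.06 CPM in WT, by -0.64 ± 0.05 (adjusted p = 8.14e-08), and by -0.96 ± 0.06 in KO (adjusted p = 5.65e-09). Lpcat2 shares 287 bases with an antisense gene. The diacylglycerol lipase Daglb fell from 137.1 ± 1.99 to 98.4 ± 7.63 CPM in WT.

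Downstream of EP2 and EP4, 28 genes of cyclic AMP signalling were tested, and 3 rose and 15 fell in WT, and 3 and 14 in KO, beside 19.3% higher and 18.0% lower of all genes in WT and 20.0% and 18.2% in KO. The medians were -0.23 and -0.22, beside -0.01 over all genes. The phosphodiesterase Pde3b, which degrades cyclic AMP, fell from 27.4 ± 4.61 to 5.47 ± 1.36 CPM in WT, by -2.32 ± 0.18 (adjusted p = 4.17e-08), and by -2.31 ± 0.20 in KO (adjusted p = 2.55e-07). Pde7a, another phosphodiesterase, rose from 21.6 ± 0.671 to 34.7 ± 1.91 CPM in WT, by 0.68 ± 0.06 (adjusted p = 1.25e-07). The receptor kinase Grk6 rose from 55.9 ± 6.61 to 125.2 ± 12.4 CPM in WT, by 1.16 ± 0.08 (adjusted p = 1.47e-08), and by 1.14 ± 0.09 in KO (adjusted p = 1.06e-07). Members that fell include genes that make cyclic AMP, such as the adenylyl cyclases Adcy7 (443.4 ± 46.3 to 350.6 ± 31.0 CPM in WT) and Adcy9 (51.9 ± 2.53 to 33.9 ± 4.34 CPM), and genes that end the signal, such as Pde3b. Gnas, the stimulatory G protein that couples both receptors, was not called, at 1043.1 to 1186.7 CPM in WT control and 1078.6 to 1210.2 CPM in WT CM.

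**Figure D5:**
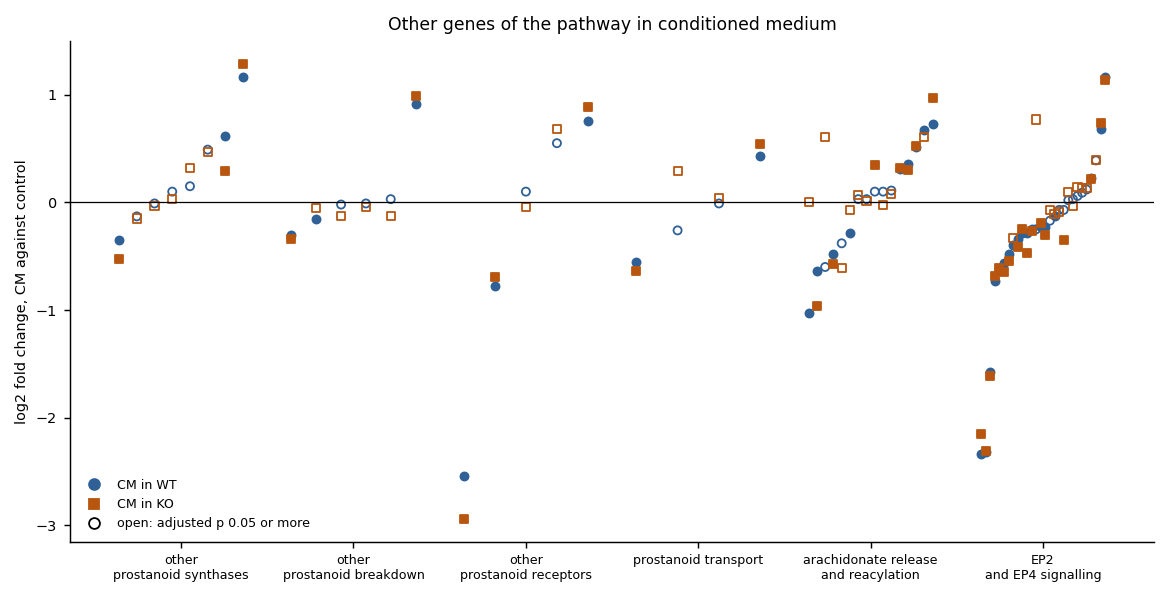
Log2 fold change in CM against control medium (vertical axis) of the 67 other pathway genes tested, grouped by list and ordered within a list by the WT value; circles are WT, squares KO, and open symbols did not pass an adjusted p of 0.05. In the list of EP2 and EP4 signalling, 15 of 28 WT values are filled below 0 and 3 above, and the lowest value among the receptors is that of Ptger3.

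Between the genotypes, 3 of the 67 were called higher and 1 lower in control medium, and 3 and 2 in CM, beside the 5.32% and 4.59% called of all genes. Daglb was higher in KO in both media, at 180.3 ± 2.84 CPM against 137.1 ± 1.99 in control medium (0.39 ± 0.06, adjusted p = 0.00172) and 121.3 ± 6.18 against 98.4 ± 7.63 in CM (0.30 ± 0.06, adjusted p = 0.00943). It overlaps Rac1 on the opposite strand over 2309 bases. Akr1b8, an aldo-keto reductase listed with the prostaglandin F synthases, was higher in control medium by 0.36 ± 0.07 (adjusted p = 0.00928). Lpcat2 was lower in KO in CM by -0.39 ± 0.06 (adjusted p = 0.00144), at 75.1 ± 3.87 against 98.7 ± 6.06 CPM.

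The remaining genotype calls of the lists were each lost when certain single libraries were left out, mostly at a similar fold. Ptgir was lower in KO control by -0.56 ± 0.13 (adjusted p = 0.0268), and the call was lost without WT control library 3 (0.0786) or 4 (0.0807) and without KO control library 1 (0.0916), 2 (0.0997) or 3 (0.0891), at log2 changes of -0.56 to -0.50. Abhd6, a monoacylglycerol lipase, was higher in KO control by 1.16 ± 0.25 (adjusted p = 0.0171), and the call was lost without WT control library 4 (0.0558) and without KO control library 2 (0.0727) or 3 (0.0669), at 1.08 to 1.14. In CM, Akr1b8 was higher by 0.33 ± 0.07 (adjusted p = 0.0154), lost without WT CM library 4 (0.0526) and without KO CM library 1 (0.0526) or 2 (0.0682), at 0.28 to 0.32. Pde4b was lower in KO CM by -0.35 ± 0.07 (adjusted p = 0.0105), lost without KO CM library 2 (-0.30, adjusted p = 0.0564). Pla2g4a was higher in KO CM by 0.32 ± 0.08 (adjusted p = 0.0399), a call lost without WT CM library 1 (0.0579), 3 (0.0813) or 4 (0.115), KO control library 2 (0.0552) or 3 (0.0509), or KO CM library 1 (0.0683), 2 (0.119) or 3 (0.122), at 0.26 to 0.36. With WT libraries 1 and 2 only, these 5 differences had adjusted p of 0.0546 to 0.153. With WT libraries 3 and 4 only, all 5 passed, at -0.69 for Ptgir (adjusted p = 0.000159), 1.70 for Abhd6 (2.81e-05), 0.42 for Akr1b8 (0.000282), -0.40 for Pde4b (0.00103) and 0.40 for Pla2g4a (0.00312). With that pair, 5246 of all 13485 tested genes passed in control medium and 4791 in CM.

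The genes whose levels most resembled those of Hpgd over the 14 libraries, by Pearson's r of log2 CPM among 9579 genes, were Ptchd1 (r = 0.988), Fmnl3 (0.987), Fam49a (0.984), Rnf144b (0.981) and Rapgef5 (0.981). This is a description, since the libraries fall into the 4 groups. All 5 were highest in KO control and lowest in WT CM by mean, as Hpgd was. Fmnl3, a formin that acts on the actin cytoskeleton, stood at means of 61.7 CPM in WT control, 27.7 in WT CM, 88.5 in KO control and 40.4 in KO CM. Ptchd1 stood at 21.1, 9.18, 26.3 and 12.9 CPM in the same order, a narrower span than that of Hpgd.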

How the data were processed

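Raw counts were deposited by the authors for 14 libraries of paired reads of 150 bp. Per the submitters' processing notes, reads were aligned with HISAT2 to mm10. The counting tool, annotation and strand setting are not given in the sources used here. The deposited table has 427386 exon entries. Of these, 196941 repeat another entry of the same gene, holding 48.6% of counts, and were dropped. The other 230445 were summed per gene, and 0 entries named no gene.

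The test was edgeR's quasi-likelihood test (edgeR 4.0.16, R 4.3.3, TMM scaling, filterByExpr with a minimum count of 10) in 1 fit of the 4 groups, with p adjusted over all 13311 genes. Intervals are the estimate with the standard error times the normal quantile for 95%. The genes and lists were chosen with earlier results of these data known. Named from the lists were, in each comparison, the 6 called genes with the smallest p and called genes with a log2 change of 1 or more at a mean of 4 CPM or more. Most like Hpgd were the 5 genes with the highest r.

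Alternatives were other scalings, filters, DESeq2 1.42.0, limma-voom (limma 3.58.1), other thresholds, the compared groups only, all exon entries, the most-counted exon, each pair of WT libraries, a replicate block and leaving out each library. WT control and CM libraries of 1 number correlated in their deviations from the group means (r = 0.33, 0.35, 0.47 and 0.46), above a set limit of 0.1. In KO they did not (r = 0, -0.04 and 0.05). WT libraries 1 and 2 correlated across numbers as well (0.31 and 0.35), as did 3 and 4 (0.46 and 0.37). The values thus do not tell pairing by number from the split of libraries 1 and 2 against 3 and 4. For CM and the interaction, the block joined control and CM libraries of 1 number within a genotype. For KO against WT, it joined WT and KO libraries of 1 number. Gene positions are from GENCODE M21.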

Additional observations from a re-analysis of the deposited data

How the results depend on the processing

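Of the 9 tested genes, the number called in CM stayed between 4 and 6 in WT and between 4 and 7 in KO under all alternatives run, beside 5 in each, and the interaction called 0 of them in each. The KO counts moved. In control medium, 1 gene was called with library totals alone, with DESeq2 and with the replicate block (Ptgs1 in each, with the block at 0.23, adjusted p = 0.0434). Over all genes these called 787 of 13311, 1481 of 12664 and 826 of 13311. The block here joins WT and KO libraries of 1 number, a link that the labels do not give. With limma-voom 3 of the 9 were called, beside 4757 of all 13311. Against WT libraries 3 and 4 alone 4 were called, beside 5246 of all 13485. When 1 library was left out, 0 to 2 were called. In CM, 0 were called at an adjusted p below 0.01 or with a 1.5-fold minimum, beside 173 and 218 of all 13311. Against WT libraries 3 and 4 alone 4 were called, beside 4791 of all 13485, and 0 to 1 when 1 library was left out. No direction of a called value reversed.

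For Hpgd, 136 values under alternatives kept their sign and moved by less than the standard error of the main estimate. These include the stricter thresholds, which reuse the main estimates, and comparisons that do not hold the library left out. The other 4 changed sign or moved by that much or more. With the most-counted exon, KO in CM was 0.92. Without KO CM library 3, CM in KO was -3.00, KO in CM was 1.31 and the interaction was 0.02. For the other 9 genes, 1213 values kept their side of the threshold, 31 newly passed it and 11 no longer did. Comparisons that do not hold the library left out are counted here as well. Ptgs2 in KO under CM passed with the replicate block (-1.11, adjusted p = 0.0356) and with the compared groups alone (-1.17, adjusted p = 0.0186), and Ptges2 with the block (-0.31, adjusted p = 0.0427). The block changed no call of these 9 genes other than those of Ptgs1, Ptgs2, Ptges2 and Hpgds. Over all genes, KO in control medium called 708 genes in the main test, 283 with the compared groups only, 385 with the most-counted exon, 1481 with DESeq2, 4757 with limma-voom and 5246 against WT libraries 3 and 4 alone. KO in CM called 611, against 1199 with DESeq2, 1794 with limma-voom and 4791 against WT libraries 3 and 4 alone. The interaction called 205 with the replicate block, and 11 and 54 against each pair of WT libraries alone. The cause was not tested. Genes with few counts, such as Ptgs2 with 497 over all libraries, have wide intervals.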
